A study of Mus musculus with 24 samples.

Results

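The genes described here are the 10 mouse genes of MHC class II antigen presentation: H2-Aa, H2-Ab1, H2-Eb1, Cd74, Ciita, H2-DMa, H2-DMb1, H2-DMb2, H2-Oa and H2-Ob. They were taken by symbol from the 55536 genes of the deposited read-count table, and 9 of the 10 were among the 14076 genes that passed the filter on low counts, the exception being H2-Oa. RNA sequencing was performed on ileum tissue, where the small bowel ends, from 24 C57BL/6N mice, with 1 library per animal. The 4 groups of 6 animals (3 males and 3 females each) received a control diet with 10% of energy from fat (CD), the same diet with metformin (CDmetf), a high-fat diet with 60% of energy from fat (HFD), or the high-fat diet with metformin (HFDmetf). Mice started their diet at an age of 4 to 5 weeks. Once 20 weeks had passed, the metformin groups received this glucose-lowering drug at 50 mg per kg of body mass and day over a further 10 weeks, and each sequenced animal came from its own cage of 3. The questions were whether the class II genes differed with diet, metformin or sex, and whether their level went with B-cell transcripts or with epithelial transcripts.

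MHC class II molecules display peptides from proteins taken up by a cell to CD4 T cells. B cells, dendritic cells and macrophages carry them constantly, and intestinal epithelial cells carry them to a degree that depends on interferon-gamma. The displayed molecule is a pair of an alpha and a beta chain, the invariant chain guards the pair on its way to the endosome, the DM proteins load the peptide there, the DO proteins hold DM back, and the coactivator CIITA switches the whole set on. DO is best known from B cells.

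The libraries were uneven. Total gene counts ranged from 1829690 to 40606442, with 14 libraries below 6000000 and 10 above 9000000, so a gene at 1 CPM (the usual depth-scaled count, here relative to the TMM-normalized library size) rested on very few reads in the shallow libraries. In the CD male number 3 (CD M3), 10 genes took 85.4% of all counts. Sex-linked transcripts went against the label in HFD M2 and in HFD F2, with 1104 CPM of Xist in HFD M2 and 0.428 CPM in HFD F2. Xist lay between 861 and 1543 CPM in the other 11 females and at most at 1.63 CPM in the other 11 males. Epcam, a surface protein of epithelium, was present in every library at 641 to 1948 CPM, and the bile acid genes Fabp6 and Slc10a2, which mark ileal epithelium, summed to between 5.72 and 3576 CPM.

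Class II genes share a promoter layout in which an X box, bound by the RFX complex, is followed by a Y box, bound by NF-Y. Of the 10 genes, 7 had an entry among the RefSeq promoter windows of GRCm38.p6, and H2-Ab1, Cd74 and Ciita did not. The 250 bases before each start site were searched on both strands for ACNNATG (the core of the X box) followed after 10 to 30 bases by ATTGG (the Y box). The pair was found in 4 of these genes, H2-Eb1, H2-DMb1, H2-DMb2 and H2-Ob, and in 0.584% of all 32851 windows. ATTGG alone or with the X core, on either strand, was found in all 7, but also in 33.8% of all windows. The stretches below show the pair in a chain gene, in a DM gene and in a DO gene that behaved differently across libraries, and in H2-Aa the Y box without a match to these letters of the X core. Forms of the X box with other letters were not searched for, so H2-Aa may still hold one. Capitals mark the X core and the Y box, and the coordinates are GRCm38, given on the strand of the gene.
H2-Eb1 (chr17:34305774-34305819, plus strand): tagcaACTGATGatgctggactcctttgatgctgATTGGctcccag
H2-DMb2 (chr17:34145124-34145170, plus strand): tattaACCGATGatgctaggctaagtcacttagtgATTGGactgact
H2-Ob (chr17:34238816-34238859, plus strand): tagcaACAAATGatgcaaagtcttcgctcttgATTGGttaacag
H2-Aa (chr17:34287860-34287911, minus strand): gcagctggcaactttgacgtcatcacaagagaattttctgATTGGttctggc
Counted from the start site, the Y box began at base -59 in H2-Eb1, -90 in H2-DMb2, -57 in H2-Ob and -48 in H2-Aa. The X core of H2-DMb1, ACTGATG, had the same letters as that of H2-Eb1 and began at base -91. These are matches of letters, and no binding was measured.

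Levels can be compared between genes only per length, so CPM were divided by the bases of all annotated exons in kilobases (GENCODE vM21, GRCm38). Cd74, which encodes the invariant chain (chr18:60803848-60812652), was the most abundant, with a median over the 24 libraries of 232 CPM per kb. The beta chain gene H2-Ab1 (chr17:34257689-34269419) followed with 78.1, then H2-Eb1 (chr17:34305867-34316674) with 49.1 and the alpha chain gene H2-Aa (chr17:34282744-34287823) with 38.3 CPM per kb. Next came H2-DMb1 (chr17:34153072-34160230) with 8.06 and H2-DMa (chr17:34119541-34139101) with 5.85 CPM per kb, then Ciita (chr16:10480059-10528418) with 2.45, H2-DMb2 (chr17:34143307-34151555) with 1.43, H2-Oa (chr17:34092340-34095234) with 0.589 and H2-Ob (chr17:34238903-34254414) with 0.491 CPM per kb. The chain genes and Cd74 thus stood far above the peptide-loading genes, and the lowest H2-Aa value, 21.9 CPM per kb, lay above the highest H2-DMb1 value, 15.2 CPM per kb. Within a library, Cd74 was above H2-Ab1 and H2-Ab1 above H2-Eb1 in 24 of 24. Some neighbours did not keep their order: H2-DMb1 was above H2-DMa in 19 of 24 libraries, Ciita above H2-DMb2 in 17 of 24 and H2-Oa above H2-Ob in 10 of 24.

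Some of these counts are uncertain by their position. H2-DMb1 and H2-DMb2 are near copies, and 11.3% of the 100-base windows in H2-DMb1 transcripts were found letter for letter in H2-DMb2, 100 bases being the length of a read. H2-DMa shares 360 exon bases with Brd2 on the opposite strand, which had 51050 counts in all against 6155 for H2-DMa, and Ciita shares 329 with Dexi. The strand setting of the counting is not given in the sources used here. Across libraries H2-DMa and Brd2 went together with r = 0.32, and Ciita and Dexi with r = 0.52 (log2 CPM, n = 24).

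The chain genes and Cd74 were measured in every library, with 129 counts or more, and varied within each group. H2-Aa ranged from 83.4 CPM to 168 CPM in CD (median 113), from 83.3 to 286 in CDmetf (median 181), from 85.8 to 201 in HFD (median 176) and from 99.2 to 174 in HFDmetf (median 130). H2-Ab1 ranged from 110.5 to 248 CPM in CD (median 179), from 89.3 to 339 in CDmetf (median 234), from 94.8 to 350 in HFD (median 238) and from 145 to 234 in HFDmetf (median 179). H2-Eb1 had medians of 95.5 CPM in CD, 121 in CDmetf, 114 in HFD and 89.0 in HFDmetf, and ranged from 47.8 to 170 CPM over all libraries. The 4 groups overlapped for all of these genes, and the HFDmetf animals had the narrowest range. Cd74 ranged from 222 to 499 CPM in CD (median 372), from 185 to 876 in CDmetf (median 454), from 158 to 716 in HFD (median 556) and from 269 to 531 in HFDmetf (median 326). Its extremes were CDmetf F1 at 876 and HFD M3 at 158 CPM, and each of these libraries lay in a group with a high median.

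Ciita, the coactivator, spanned a wider range, from 8.72 CPM in CDmetf M2 to 81.5 in CDmetf F2. Its medians were 22.1 CPM in CD, 33 in CDmetf, 26.8 in HFD and 21.6 in HFDmetf. HFD F1 at 67.2 CPM was next to CDmetf F2, and the other 22 libraries were at 42.5 CPM or lower. The DM genes H2-DMa and H2-DMb1 were like the chain genes, with medians of 18.6, 21.8, 28.7 and 18.2 CPM for H2-DMa and of 12.5, 14.8, 17.5 and 10.8 CPM for H2-DMb1 in CD, CDmetf, HFD and HFDmetf.

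The second DM beta gene, H2-DMb2, and the DO genes behaved otherwise, with a few libraries far above the rest. H2-Ob ranged from 1.34 to 6.74 CPM in CD (median 2.43), from 0.902 to 30.9 in CDmetf (median 6.86), from 1.63 to 30.2 in HFD (median 3.95) and from 0.942 to 5.12 in HFDmetf (median 1.75). H2-DMb2 ranged from 1.33 to 5.54 CPM in CD (median 2.34), from 1.37 to 26.7 in CDmetf (median 5.35), from 0.857 to 26.7 in HFD (median 3.98) and from 0.885 to 2.84 in HFDmetf (median 2.02). The highest values of both genes in CDmetf and HFD came from CDmetf F2 and HFD F1, and the groups overlapped. H2-Oa was listed with 0 to 209 counts, a median of 4, and reached 6.06 CPM in CDmetf F2 and 4.91 in HFD F1. In HFDmetf M2 it had 0 counts, where 3 counts would have been 0.942 CPM.

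**Figure D1:**
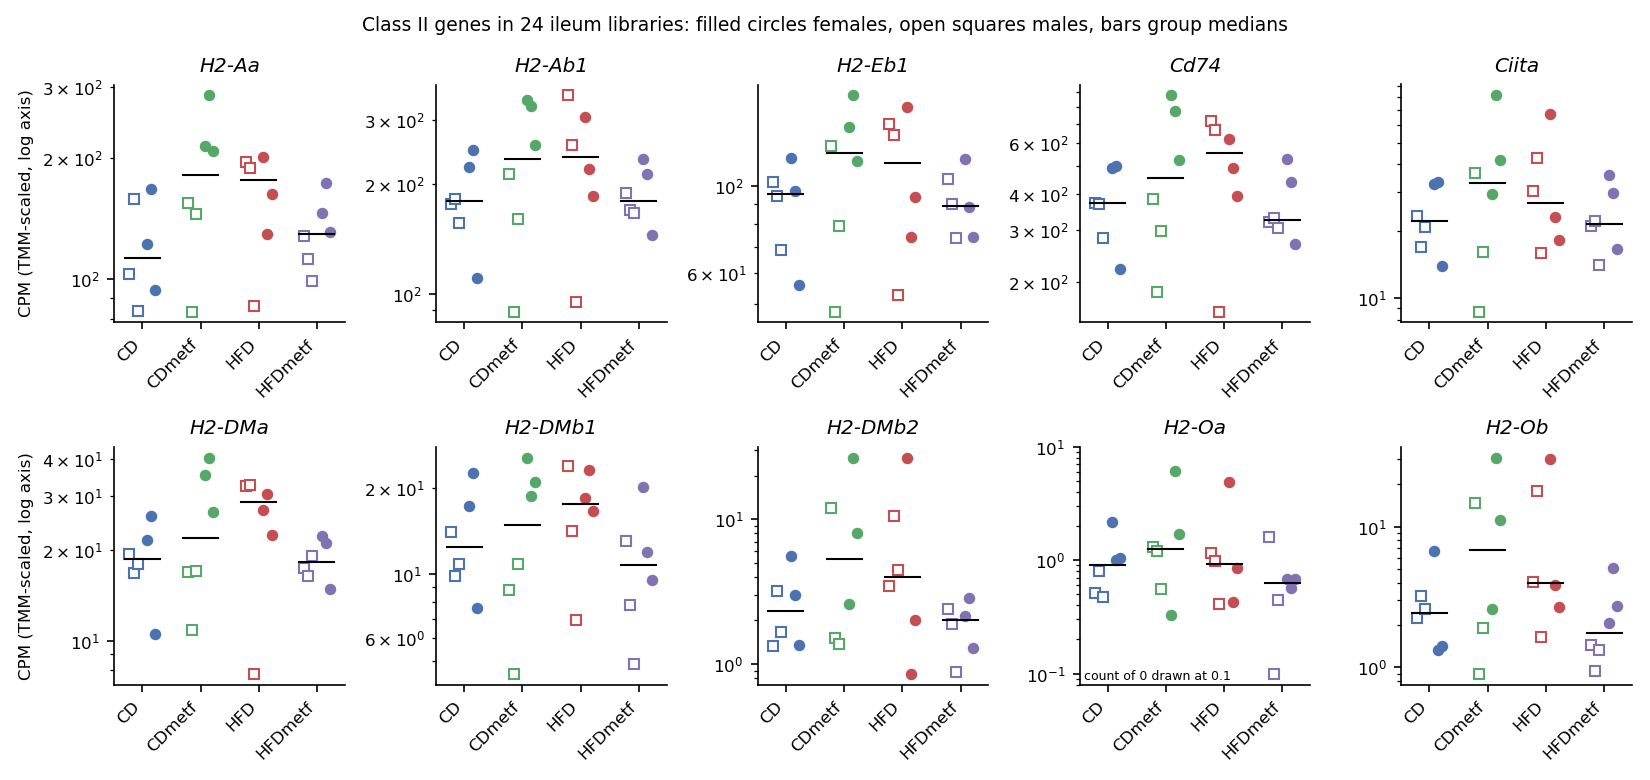
CPM of the 10 class II genes in each of the 24 libraries on log axes, by group (CD, CDmetf, HFD, HFDmetf), with filled circles for females, open squares for males and bars at group medians. H2-DMb2, H2-Oa and H2-Ob show a few libraries far above the rest in CDmetf and HFD, up to 30.9 CPM for H2-Ob, while H2-Aa, H2-Ab1, H2-Eb1 and Cd74 spread within overlapping groups. The H2-Oa count of 0 is drawn at 0.1.

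No class II gene passed the test in any comparison between groups. The edgeR quasi-likelihood fit modelled group and sex with the replicate number as a block, with Benjamini-Hochberg adjustment over 14076 genes. In each of the 4 contrasts 0 of the 9 genes tested were called at FDR under 0.05, and 0% of all genes were called. The study itself, with limma-voom, reported genes at FDR under 0.05 in each of these contrasts. Among them were H2-Ob in HFD vs. CD, and H2-Ob and H2-DMb2 in HFDmetf vs. CDmetf. The cause of this difference was not tested. At an unadjusted p under 0.05, 2 of 9 members stood in HFD vs. CD (background 4.63% of all genes), 3 in HFDmetf vs. CDmetf (7.87%), 3 in HFDmetf vs. HFD (6.61%) and 3 in CDmetf vs. CD (5.14%). The fitted directions were alike across the genes: 9 of 9 log2 fold changes (logFC) were above 0 in HFD vs. CD (median 0.42) and in CDmetf vs. CD (median 0.39). In HFDmetf vs. CDmetf and in HFDmetf vs. HFD 9 of 9 were below 0, with medians of -0.43 and -0.43. Over all genes tested the medians of the same contrasts were -0.0047, -0.0023, 0.03 and 0.03, in this order. Each group enters more than 1 of these contrasts, so their directions are not independent of each other, and the members share libraries.

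Among the loading genes the largest fitted differences were those of H2-Ob and H2-DMb2. H2-Ob had a logFC of 1.62 ± 0.68 (SE) in HFD vs. CD and of 1.71 ± 0.67 in CDmetf vs. CD, with FDR = 1.00 and 0.94. In the animals with both HFD and metformin it lay lower, at -2.11 ± 0.70 in HFDmetf vs. CDmetf and -2.02 ± 0.72 in HFDmetf vs. HFD, with FDR = 0.58 and 0.64. Of the 6 pairs of animals with the same labelled sex and replicate number, H2-Ob was higher in the first-named group in 5, 3, 1 and 2 for these contrasts in the same order. Without the pairs that hold HFD M2 or HFD F2 it was so in 3 of 4 for HFD vs. CD and in 1 of 4 for HFDmetf vs. HFD. The values of H2-DMb2 were close to those of H2-Ob, with logFC of 1.55 ± 0.64, 1.67 ± 0.62, -2.11 ± 0.66 and -2.0 ± 0.67. H2-Oa, fitted only without the filter on low counts, had logFC of 0.56 ± 0.53 in HFD vs. CD, 0.90 ± 0.52 in CDmetf vs. CD, -1.34 ± 0.56 in HFDmetf vs. CDmetf and -1.01 ± 0.56 in HFDmetf vs. HFD, with an adjusted p of 0.84 or above in edgeR.

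The other genes differed less. Cd74 had logFC of 0.41 ± 0.26 in HFD vs. CD, 0.39 ± 0.26 in CDmetf vs. CD, -0.40 ± 0.26 in HFDmetf vs. CDmetf and -0.43 ± 0.26 in HFDmetf vs. HFD. H2-Aa had the smallest p of the chain genes, in CDmetf vs. CD (logFC = 0.58 ± 0.21, unadjusted p = 0.0102, FDR = 0.94), and was higher in CDmetf in 5 of 6 pairs. Ciita had logFC of 0.44 ± 0.33, 0.56 ± 0.32, -0.61 ± 0.33 and -0.49 ± 0.33 in the same order as Cd74. H2-DMb1 was lower in HFDmetf than in HFD (logFC = -0.64 ± 0.28, unadjusted p = 0.031, FDR = 0.64), and 1 of 6 pairs went the other way. None of these differences was called once all genes tested were accounted for.

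The fitted diet difference was positive without metformin and negative with it. The diet by metformin interaction, the logFC of diet with metformin minus that without, was below 0 in 9 of 9 genes with a median of -0.82, against 0.03 over all genes. At an unadjusted p under 0.05, 6 of 9 stood (background 6.03%), and 0 of 9 were called, with 0% of all genes called. H2-Ob had an interaction of -3.72 ± 0.97 (FDR = 0.55), H2-DMb2 of -3.66 ± 0.91 (FDR = 0.55), Ciita of -1.05 ± 0.46 (FDR = 0.80) and Cd74 of -0.82 ± 0.37 (FDR = 0.80). With limma-voom and sample quality weights, H2-DMb2 (-4.82) and H2-Ob (-5.11) passed with FDR = 0.0169 for both, while 285 genes were called in all. The B-cell list, described next, had an interaction median of -4.44 with 10 of 10 genes below 0.

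Ms4a1 varied more than any member. This gene, which encodes the B-cell surface protein CD20, ranged from 0.513 to 49.4 CPM, and in 6 libraries it was at 7.22 CPM or above: CDmetf F2, HFD F1, HFD M2, CDmetf F3, CDmetf M1 and CD F1. In the other 18 it was at 3.98 CPM or below. The summed level of the 10 B-cell genes ranged from 7.87 to 76.6 CPM in CD, 12.3 to 426 in CDmetf, 14.3 to 332 in HFD and 8.98 to 30.1 in HFDmetf. In HFD vs. CD and CDmetf vs. CD 10 of 10 B-cell genes had a positive logFC (medians 1.76 and 2.19), and in HFDmetf vs. CDmetf and HFDmetf vs. HFD 10 of 10 had a negative one (medians -2.48 and -2.23). None was called.

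In the 6 libraries with high Ms4a1, H2-Ob was at 6.74 to 30.9 CPM and in the other 18 at 0.902 to 5.12. H2-DMb2 was at 5.54 to 26.7 against 0.857 to 4.49 CPM, so for both genes the sets did not overlap. How many of all genes keep these sets apart was not counted, and the sets were themselves cut by Ms4a1. For Ciita 5 of the 6 lay above all 18, with medians of 42.2 and 20.9 CPM. For H2-Ab1, Cd74 and H2-DMb1, 0 of the 6 did so. Cd74 had medians of 572 and 351 CPM, and its highest library, CDmetf F1, had only 1.63 CPM of Ms4a1.

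Over all 24 libraries, 9 of the 10 members went with Ms4a1 past the adjusted threshold by Pearson's r and 8 by Spearman's rho. The count by rho was 1 without CDmetf F2, CDmetf F3, HFD M2 or HFD F1 alone. The share of all genes that would pass with Ms4a1 was not computed, so these counts have no background. The tests used 100000 two-sided permutations on log2 CPM, adjusted by Benjamini-Hochberg over the 20 relations of 10 members with Ms4a1 and Epcam. H2-Ob was closest (r = 0.89, p = 1e-05, the smallest these permutations can give, adjusted p = 0.0002; rho = 0.72, p = 0.00011, adjusted p = 0.0022), followed by H2-DMb2 (r = 0.83, p = 2e-05, adjusted p = 0.0002; rho = 0.58, p = 0.00414, adjusted p = 0.0276). Ciita had r = 0.75 (p = 3e-05, adjusted p = 0.0002) and rho = 0.57 (p = 0.00414, adjusted p = 0.0276). The chain genes and Cd74 were lower, with r from 0.52 for Cd74 (p = 0.00969, adjusted p = 0.0242; rho = 0.53, p = 0.00826, adjusted p = 0.0286) to 0.61 for H2-Eb1 (p = 0.00149, adjusted p = 0.00745; rho = 0.50, p = 0.0144, adjusted p = 0.0361). H2-DMa had r = 0.51 (p = 0.0114, adjusted p = 0.0254) and H2-Oa r = 0.58 (p = 0.00223, adjusted p = 0.00803), with rho = 0.54 (p = 0.00709, adjusted p = 0.0286) and 0.32 (p = 0.124, adjusted p = 0.275). H2-DMb1 did not pass (r = 0.25, p = 0.234, adjusted p = 0.426; rho = 0.27, p = 0.205, adjusted p = 0.411). Per log2 unit of Ms4a1, H2-Ob moved by 0.70 ± 0.08 (SE) log2 units, H2-DMb2 by 0.61 ± 0.09, Ciita by 0.30 ± 0.06 and Cd74 by 0.18 ± 0.06.

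The relations rested in part on few libraries. Without CDmetf F2 and HFD F1, the 2 libraries farthest from the median of Ms4a1, 3 of 10 members passed by r, namely H2-Ob (r = 0.81, adjusted p = 0.001; rho = 0.63, adjusted p = 0.0504), H2-DMb2 (r = 0.70, adjusted p = 0.0047) and Ciita (r = 0.57, adjusted p = 0.0378), and 0 by rho. For the chain genes, Cd74, H2-DMa and H2-Oa the relation with Ms4a1 no longer passed without those 2 libraries, with r from 0.28 for H2-Oa to 0.45 for H2-Eb1. Without CDmetf F2 alone, 4 of 10 passed. Without HFD M2 and HFD F2, 7 passed by r and 2 by rho. Within the 18 libraries with low Ms4a1 the members had r from -0.34 to 0.28 with a median of 0.10, and 0 passed. Ms4a1 rested on a median of 5 counts there. With the score of all 10 B-cell genes (the mean z-score of their log2 CPM) the same 18 libraries gave r = 0.52 for H2-Aa, 0.70 for H2-Ab1, 0.63 for H2-Eb1, 0.62 for Cd74, 0.62 for H2-DMa and 0.60 for Ciita, against 0.35 for H2-Ob, 0.29 for H2-DMb2 and -0.11 for H2-Oa, as a description. Within the 6 libraries with high Ms4a1, r ranged from 0.36 to 0.95, and 6 of 10 passed by r and 1 by rho in exact permutation tests. The limit of 5 CPM that separates these sets was chosen after the data were seen.

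Within replicate numbers the direction held for most members. In the 8 libraries of number 1, r had a median of 0.53 and ranged from -0.17 (H2-DMb1) to 0.98, and 3 of 10 passed in exact permutation tests over all orders of the libraries. In numbers 2 and 3 the medians were 0.73 and 0.68 and 0 passed. With the terms for group, sex and replicate number removed from both sides, 5 of 10 passed, H2-Ob with r = 0.88, H2-DMb2 with 0.82, Ciita with 0.79, H2-Eb1 with 0.64 and H2-Oa with 0.53. In the 10 libraries of over 9000000 gene reads the members had a median r of 0.80 and 9 passed, and in the 14 of under 6000000 the median was 0.46 and 3 passed, a split made after the data were seen. The split went by total counts, so the deeper set holds CD M3, whose TMM-normalized library size was only 4232410.

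**Figure D2:**
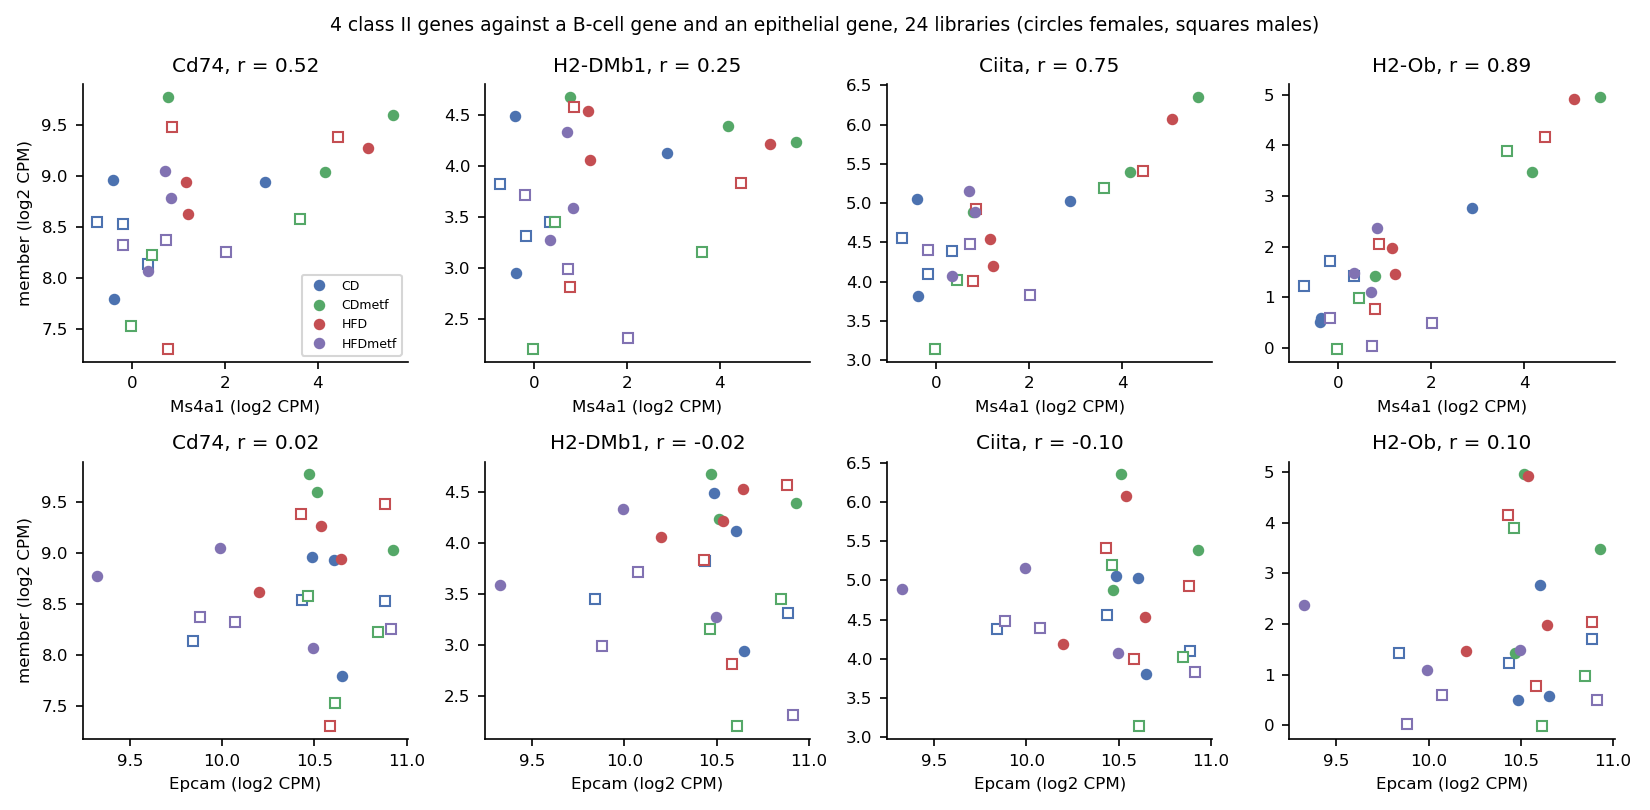
Log2 CPM of Cd74, H2-DMb1, Ciita and H2-Ob (vertical axes) against log2 CPM of Ms4a1 (upper row) and Epcam (lower row) in the 24 libraries, coloured by group, with circles for females and squares for males. H2-Ob follows Ms4a1 closely (r = 0.89), with 6 libraries far to the right, H2-DMb1 does so weakly (r = 0.25), and with Epcam r lies between -0.10 and 0.10.

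No member passed the test with the epithelial gene. With Epcam, r ranged from -0.10 (Ciita) to 0.29 (H2-Oa) with a median of 0.02, rho from -0.23 to 0.21, and 0 of 10 passed (smallest adjusted p = 0.333 by permutation). Without HFDmetf F2 and CD M3, the 2 libraries farthest from the median of Epcam, r ranged from -0.14 to 0.27, and within replicate numbers 1, 2 and 3 the medians were 0.42, 0.02 and 0.13 with 0 passing in each. Epcam itself varied by 3.04-fold between its lowest and highest library and Ms4a1 by 96.2-fold. Whether this narrower range of Epcam bears on its low r was not tested. Across the 8 epithelial genes the median logFC lay between -0.24 and 0.04 in the 4 contrasts.

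Other cell type lists were compared as scores, the mean z-score of log2 CPM over the genes of a list, as a description over the same 24 libraries. With the B-cell score r was 0.92 for H2-Ob, 0.90 for H2-DMb2, 0.86 for Ciita, 0.75 for H2-Eb1 and 0.35 for H2-DMb1. The T-cell score, which has no gene in common with the B-cell list, gave nearly the same, with 0.93 for H2-Ob, 0.89 for H2-DMb2 and 0.86 for Ciita. The plasma-cell score ran from -0.10 for H2-Oa to 0.48 for Cd74, the dendritic-cell score from 0.0034 for H2-Oa to 0.44 for H2-DMb2, the macrophage score from -0.35 for H2-Oa to 0.16 for H2-Aa, the epithelial score from -0.12 to 0.23 and the smooth-muscle score from -0.30 to -0.0086. The ileal-epithelium score of Fabp6 and Slc10a2 ran from -0.07 for H2-DMb1 to 0.35 for H2-Oa. It ran from 0.03 for Ciita to 0.52 for H2-Oa after removal of the group, sex and replicate terms. With the group, sex and replicate terms removed, r with the dendritic-cell score was higher, at 0.70 for H2-DMb2 and Ciita, 0.67 for H2-Eb1 and 0.64 for H2-Aa, where the B-cell score gave 0.87, 0.86, 0.72 and 0.52. The macrophage list had a positive median logFC in HFDmetf vs. HFD (0.53, 7 of 7 genes), where all 9 members had negative ones. In HFDmetf vs. CDmetf its median was also positive (0.20, 6 of 7), again against the members. In HFD vs. CD (0.27, 6 of 7) and CDmetf vs. CD (0.37, 7 of 7) it was positive like the members. The T-cell list went with the members, with 5 of 5 genes positive in HFD vs. CD (median 0.71) and CDmetf vs. CD (0.96). In HFDmetf vs. CDmetf (-1.51) and HFDmetf vs. HFD (-1.27) 5 of 5 were negative. Every gene of the B-cell, plasma-cell, T-cell, dendritic-cell and macrophage lists had counts in at least 1 of the 24 libraries. Their presence was not counted group by group. In a bulk library, fewer cells of a type and less RNA per cell cannot be told apart.

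**Figure D3:**
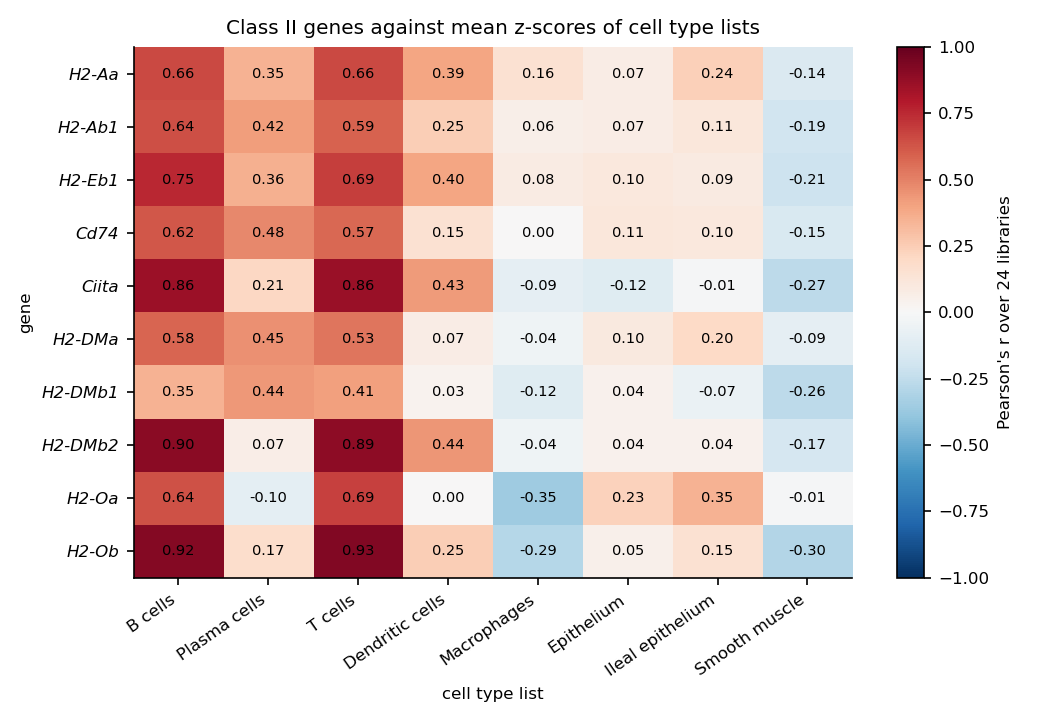
Pearson's r over 24 libraries between log2 CPM of each class II gene (rows) and the score of each cell type list (columns), with red for positive and blue for negative values. The columns of B cells and T cells are the strongest for H2-Ob (0.92 and 0.93), H2-DMb2 and Ciita, and H2-DMb1 is weakest with B cells (0.35).

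With the B-cell score added to the fit as a covariate, the differences of H2-Ob and H2-DMb2 shrank the most. H2-Ob went from 1.62 to 0.25 in HFD vs. CD, from 1.71 to 0.0082 in CDmetf vs. CD, from -2.11 to -0.19 in HFDmetf vs. CDmetf, and from -2.02 to -0.43 in HFDmetf vs. HFD. H2-DMb2 went from 1.55 to 0.26 in HFD vs. CD and from -2.0 to -0.54 in HFDmetf vs. HFD. Ciita changed sign in 3 of the 4 contrasts, to -0.04 in HFD vs. CD, -0.10 in CDmetf vs. CD and 0.05 in HFDmetf vs. CDmetf, and was at -0.0065 in HFDmetf vs. HFD. H2-DMb1 hardly moved, from 0.33 to 0.34 in HFD vs. CD and from -0.64 to -0.66 in HFDmetf vs. HFD. The median of the members went to 0.26 in HFD vs. CD, 0.097 in CDmetf vs. CD, -0.22 in HFDmetf vs. CDmetf and -0.30 in HFDmetf vs. HFD, and 0 were called. The interaction median went from -0.82 to -0.49, and 0 of 9 stood at an unadjusted p under 0.05 in place of 6. The score was measured in the same libraries as the members, so this shows how far they moved together.

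**Figure D4:**
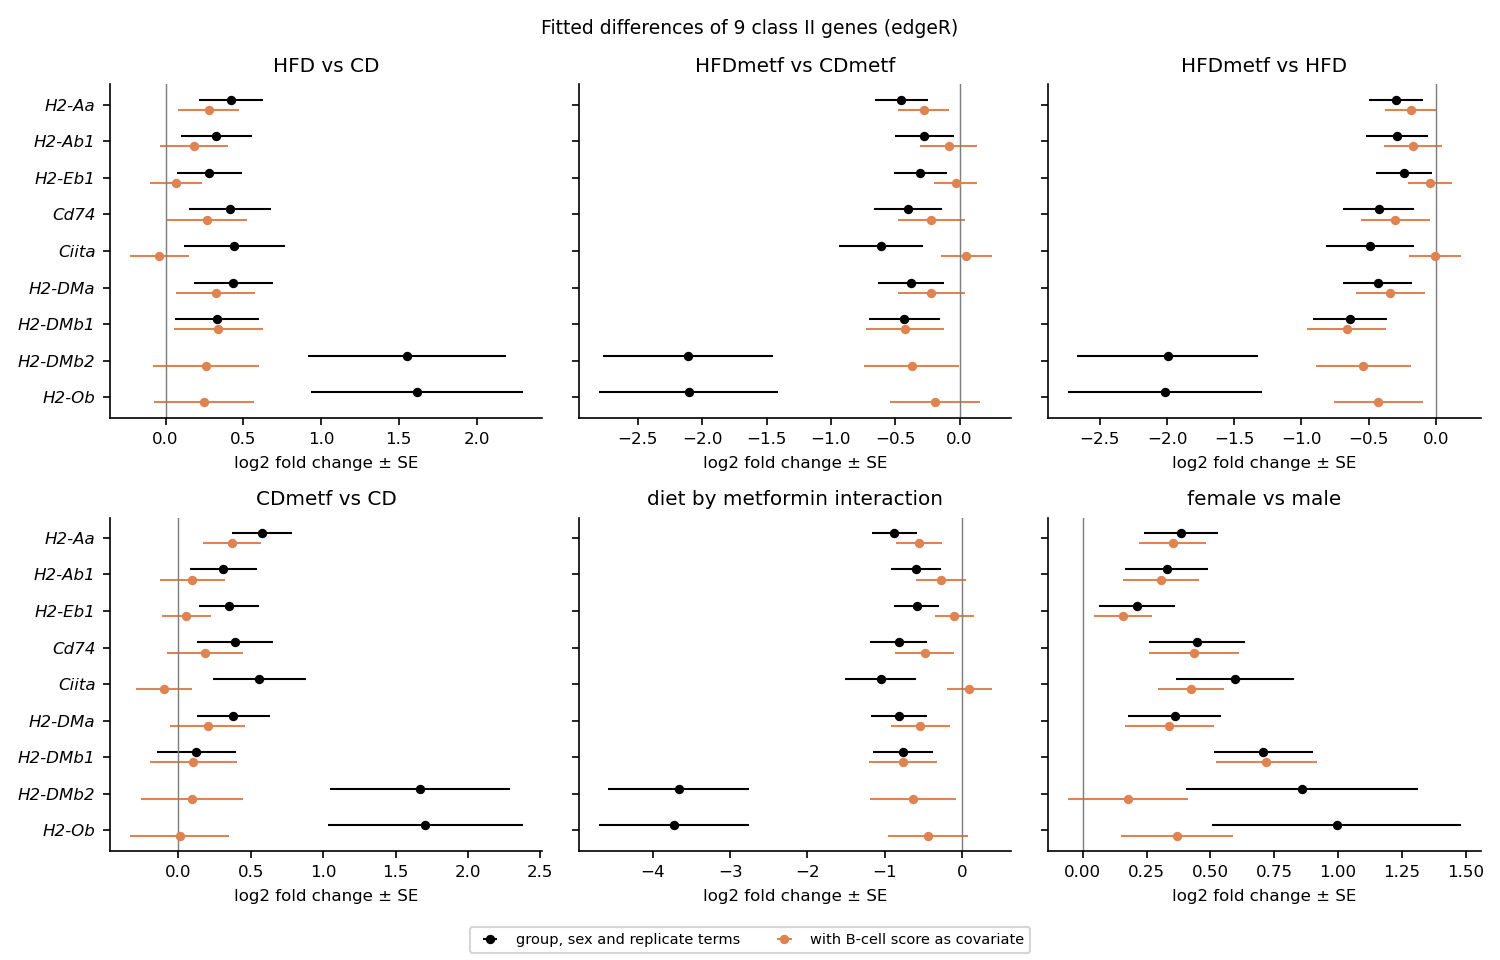
Fitted log2 fold changes with SE of the 9 tested class II genes in the 4 contrasts, the diet by metformin interaction and females vs. males, in black from the fit without and in orange from the fit with the B-cell score as a covariate. H2-DMb2 and H2-Ob stand apart in black (H2-Ob 1.62 in HFD vs. CD) and come near the other genes in orange (0.25).

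The members fell into 2 sets by how they went together. Among H2-Aa, H2-Ab1, H2-Eb1, Cd74, H2-DMa and H2-DMb1 the 15 pairwise r were between 0.70 and 0.98 with a median of 0.84, and among H2-DMb2, H2-Oa and H2-Ob the 3 were between 0.67 and 0.86. Between the sets the 18 were between 0.30 and 0.71. Ciita stood between them, with a median r of 0.80 with the first set and 0.81 with the second. In the 18 libraries with low Ms4a1 the first set kept a median r of 0.84, and in the second the 3 values were between 0.13 and 0.16, at levels of a few counts in the shallow libraries. All of these are descriptions over libraries that share depth and scaling, and the sets were formed after the values were seen.

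The balance of DO to DM was followed by the log2 ratio of H2-Ob to H2-DMa. Across libraries this ratio went with the B-cell score, with r = 0.82. H2-Ob alone had r = 0.92 with that score and H2-DMa 0.58. H2-Ob also varied more, with an SD of 1.47 log2 units against 0.57, so the r of the ratio is not separate from that of H2-Ob. A shift of DO against DM within a cell type was not tested. The ratio had medians of -2.79 in CD, -2.18 in CDmetf, -2.57 in HFD and -3.45 in HFDmetf, and reached 0.16 in a HFD library. Over the 6 pairs of animals with the same labelled sex and number the mean difference was 0.83 ± 0.81 (SD) in HFD vs. CD, -1.16 ± 1.25 in HFDmetf vs. CDmetf, -1.21 ± 1.87 in HFDmetf vs. HFD and 0.79 ± 2.32 in CDmetf vs. CD. The exact two-sided sign-flip permutation p-values were 0.0938, 0.0625, 0.219 and 0.438, adjusted 0.188, 0.188, 0.292 and 0.438, where 6 pairs allow no p below 0.03125, so that a contrast alone at that limit could not pass after adjustment over 4. Without the pairs that hold HFD M2 or HFD F2 the mean difference was 0.56 ± 0.89 (4 pairs) in HFD vs. CD and -1.26 ± 1.76 in HFDmetf vs. HFD.

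Females had higher fitted levels than males in 9 of 9 members (median logFC 0.45, against -0.01 over all genes), although 0 of 9 were called and 0.0071% of all genes were. At an unadjusted p under 0.05, 4 of 9 stood (background 7.27%). These were H2-DMb1 (logFC = 0.71 ± 0.19, FDR = 0.48), H2-Aa (0.38 ± 0.14, FDR = 0.60), Ciita (0.60 ± 0.23, FDR = 0.61) and Cd74 (0.45 ± 0.19, FDR = 0.63). H2-DMb1 was at 17.7 ± 5.50 CPM (SD, n = 12) in females and 10.8 ± 5.2 in males, and was higher in the female in 10 of 12 pairs of the same group and number by label, and in 9 of 11 without the pair of HFD M2 and HFD F2. H2-Aa was at 170 ± 51.8 CPM in females and 128 ± 40.1 in males and higher in 11 of 12 pairs, or 11 of 11. Other members were less even, with Cd74 higher in the female in 8 of 12 pairs, or 8 of 11, and H2-DMb2 in 6 of 12, or 6 of 11. For H2-DMb1 and H2-Aa the ranges of both sexes overlapped.

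Since 2 libraries went against their sex label, the comparison was also made without HFD M2 and HFD F2. Then 10 of 10 members tested were higher in females, with a median logFC of 0.64 and 10 of 10 at an unadjusted p under 0.05 (6.74% of the 15044 genes in that fit), and 0 called (0.0532%). The members share libraries and went together across them, so these 10 are not independent of each other. H2-DMb1 had a logFC of 0.72 ± 0.21 and the lowest adjusted p of the members, 0.48, Ciita had 0.74 ± 0.23, Cd74 0.55 ± 0.19 and H2-Ob 1.40 ± 0.50. With the B-cell score as covariate in all 24 libraries, H2-DMb1 was at 0.72, Ciita went from 0.60 to 0.43 and H2-Ob from 0.99 to 0.37. The B-cell list was higher in females in 10 of 10 genes (median 0.90), the macrophage list lower in 7 of 7 (median -0.24), and the dendritic-cell list had a median of -0.01. Their part in the sex difference was not tested beyond the B-cell covariate.

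The genes most like a member across the 24 libraries were found by Pearson's r of log2 CPM among all tested genes other than members. For H2-Ob these included Ikzf1 (r = 0.92), a lymphoid transcription factor, the B-cell genes Cd22 and Cd79a (0.89 each), and Ms4a1 (0.89). For Ciita they were Gm1966 (0.91), Traf3ip3 (0.90), Wdfy4 (0.88), H2-Q6 (0.88) and Ptpn6 (0.87). For H2-Ab1 the closest were Def6 (0.81), Ffar1 (0.76), Lck (0.76), Zfp689 (0.75) and Ezh1 (0.75), most of them at a median of a few CPM.

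Of the other genes around class II presentation, none was called in the 4 contrasts. The 7 transcription factors that act on class II promoters (Rfx5, Rfxap, Rfxank, Nfya, Nfyb, Nfyc, Creb1) had median logFC between -0.09 and 0.05, with Rfxank at -0.38 ± 0.22 in HFDmetf vs. HFD and Creb1 at 0.18 ± 0.10 in CDmetf vs. CD. In the processing list, the protease genes Ctss, which trims the invariant chain (-0.40 ± 0.18 in HFDmetf vs. CDmetf, unadjusted p = 0.0338, FDR = 0.63), and Lgmn (0.42 ± 0.20 in CDmetf vs. CD) had the smallest p of 6 genes. In the interferon-gamma axis 9 of 9 tested genes were lower in HFDmetf than in CDmetf (median -0.27), led by the chemokine gene Cxcl9 (-1.41 ± 0.43, unadjusted p = 0.00377, FDR = 0.58). The ubiquitin ligase gene March1, which removes class II from the surface, and Cd83, which opposes it, were at 0.67 ± 0.34 and 0.73 ± 0.40 in HFD vs. CD. Cd86 (0.67 ± 0.32) and Icosl (0.37 ± 0.25) of the costimulatory ligands led in CDmetf vs. CD, and on the T-cell side Cd28 was at 0.91 ± 0.35 in HFD vs. CD and Cd4 at 0.62 ± 0.30 in CDmetf vs. CD. H2-Eb2, another beta chain gene of the region, moved on the scale of H2-Ob, with logFC of 1.95 in HFD vs. CD, 2.27 in CDmetf vs. CD, -2.94 in HFDmetf vs. CDmetf and -2.61 in HFDmetf vs. HFD, and was not called either (smallest FDR in edgeR 0.58).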

How the data were processed

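Ileum RNA of 24 mice was sequenced after ribosomal RNA depletion with a directional kit as paired-end reads. The authors trimmed the reads with Trimmomatic 0.39, mapped them to GRCm38 with STAR 2.5.3a and deposited raw read counts per gene. The annotation release and the strand used in counting are not given in the sources used here. Symbols were found for 55450 of 55536 gene IDs. The 24 count columns were matched to animals by label, with 0 columns of other samples.

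From the counts, edgeR 4.0.16 in R 4.3.3 (filterByExpr, TMM, quasi-likelihood F-test, group, sex and replicate number as terms, Benjamini-Hochberg over 14076 genes, threshold 0.05) was fitted to all libraries. The study used sex and its block as covariates. The fit here has the replicate number from the labels as a block, and whether it is the study's block is not given in the sources used here. Libraries of the same number in different groups deviated together with a mean r of 0.13 (72 pairs), others with -0.06 (144 pairs). Log2 CPM used a prior count of 1. DESeq2 1.42.0, limma 3.58.1 and other settings were alternatives. The edgeR fit, in HFD vs. CD, and the permutation test of r were tried on simulated data. Groups, sexes and numbers came from the labels.

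The members and the lists of other genes were chosen with earlier results of these data known. All members were named, the 5 most similar other genes for H2-Ab1, Ciita and H2-Ob, and from each pathway list the called genes or else the 2 with the smallest p in the 4 contrasts. Some genes that this rule names are not reported here. Counts from 1829690 to 40606442 per library limit the precision of the genes near 1 CPM. Replicates were animals, each from its own cage.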

Additional observations from a re-analysis of the deposited data

Results flagged for a closer look

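In 5 of the 40 sets of 6 values formed by 10 genes and 4 groups, a library lay far from the others by Dixon's criterion for 6 values. Chance alone flags about 1 in 20 such sets if values are independent and normally distributed. These were CPM without a log, some at a few counts, and the sets share the same 24 libraries, so that rate need not hold here. In CDmetf, H2-Oa reached 6.06 CPM in F2, while the next library was at 1.69. In HFD, F1 had 4.91 CPM of H2-Oa against 1.16 in the next library, and 26.7 CPM of H2-DMb2 against 10.5. In CD, F1 stood apart with 2.17 CPM of H2-Oa (next 1.05) and 6.74 CPM of H2-Ob (next 3.19). All 5 values belong to H2-DMb2, H2-Oa and H2-Ob, and all 3 libraries are among the 6 with the highest Ms4a1. No interaction of diet and metformin passed the threshold, nor did any of 36 differences of a contrast between the sexes (smallest FDR in edgeR 0.91).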

How the results depend on the processing

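The 0 members called in each contrast stayed at 0 under every alternative run (limma-voom, DESeq2, RLE size factors, other filters, other terms, left-out libraries), except the interaction, where limma-voom with sample quality weights called 2. The fits have the replicate number as a block. Without the replicate block 0 were called too, and the medians were 0.45 in HFD vs. CD, 0.36 in CDmetf vs. CD, -0.39 in HFDmetf vs. CDmetf and -0.50 in HFDmetf vs. HFD. Leaving out each animal in turn, 0 members were called, and these medians ranged from 0.31 to 0.51, 0.27 to 0.58, -0.60 to -0.30 and -0.60 to -0.35. Members past the threshold with Ms4a1 numbered 9; they numbered 5 after removal of the group, sex and replicate terms, 3 without the 2 farthest libraries, 3, 0 and 0 within replicate numbers 1, 2 and 3, and, chosen after seeing the data, 3 in libraries under 6000000 reads and 0 under 5 CPM of Ms4a1; leaving out each animal gave 4 to 9 by r, the lowest without CDmetf F2, and 1 to 8 by rho, the lowest without CDmetf F2, CDmetf F3, HFD M2 or HFD F1. With Epcam it was 0 throughout.

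Directions turned for Ciita with the B-cell covariate (-0.039 in HFD vs. CD, -0.099 in CDmetf vs. CD, 0.054 in HFDmetf vs. CDmetf and 0.093 in the interaction) and for H2-DMb1 in CDmetf vs. CD, at -0.071 to 0.30 when each animal was left out. They also turned for r with Ms4a1 of H2-DMb1 (-0.029 after removal of terms, -0.17 in number 1, -0.019 under 5 CPM of Ms4a1), H2-DMb2 (-0.16) and H2-Oa (-0.34, both under 5 CPM), and for the ratio in HFD vs. CD with H2-Oa in place of H2-Ob (-0.20). The causes were not tested. Counts at an unadjusted p under 0.05 are less firm: 6 in the interaction became 0 with the B-cell covariate, 3 without the block, 8 with DESeq2 and 10 of 10 without the filter on low counts, and 4 between the sexes became 8 with limma-voom. Depth limits H2-Oa, whose median count was 4.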
